A study of Rattus norvegicus with 12 samples.

Results

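The genes described here are Pck1 and 7 enzymes that build glycerolipids, namely Gpd1, Dgat1, Dgat2, Gpam, Agpat2, Lpin1 and Gk, as measured in mesenteric lymph nodes (MLN) of suckling rats given conjugated linoleic acid (CLA). All probe sets that the annotation of the array gives to these symbols were taken, which was 13 of the 31042 probe sets tested, with 1 probe set for 3 genes and 2 probe sets for 5 genes. MLN of 12 Wistar pups aged 21 days were hybridized to Affymetrix rat genome arrays, 1 pup per array and 3 pups per group. Group A pups came from dams fed 1% CLA in gestation and suckling and took it up with the milk, for 5 wk of supplementation in total. Group B pups had dams on 1% CLA in gestation alone and were given CLA by daily oral gavage in suckling, also 5 wk in total. Group C pups had CLA by gavage in the 3 wk of suckling and dams on the standard diet, and group D pups had dams on the standard diet and no CLA. The sources used here do not give the litter of each arrayed pup, so litter and diet group cannot be told apart, and the p-values measure the spread between these pups.

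Fat is stored as triacylglycerol, which is made by adding fatty acyl chains one after the other to glycerol-3-phosphate. Gpd1 makes this backbone from a glycolytic intermediate, Gk makes it from free glycerol, and Pck1, the cytosolic phosphoenolpyruvate carboxykinase, feeds it from pyruvate and amino acids by glyceroneogenesis, the route that adipocytes use to make backbone when glucose is scarce. Gpam and Agpat2 attach the first acyl chains, Lpin1 removes the phosphate, and Dgat1 and Dgat2 attach the last chain. In liver and kidney Pck1 is best known as the gatekeeper of gluconeogenesis. MLN lie embedded in mesenteric fat, which is a textbook site of these enzymes.

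Levels are log2 of the signal intensity after quantile normalization, and a difference of 1 is a 2-fold change. The members were chosen by function and by their levels in the CLA groups against group D, so those differences are given as descriptions with no test. The same holds for Pck1, Gpd1 and Dgat2 between group C and groups A and B. The other comparisons of members among the CLA groups were tested. They use the same levels of the CLA groups by which the members were chosen, so their p-values are not independent of that choice. Of the 12 arrays, replicate 3 of group D stood apart: its mean correlation was 0.896 with the other arrays of group D, 0.931 with group B and 0.930 with group C. Differences of the members from group D are therefore given with and without it. On smooth muscle markers it was the other 2 arrays of group D that stood apart. The log2 of the summed signal was 12.95 and 13.00 in replicates 1 and 2 of group D and 10.16 in replicate 3. It was 9.85 to 11.01 in the CLA arrays, so neither setting is taken as the truer one. Before normalization the median intensity of an array lay between 27.6 and 32.9 for A pups, 19.3 and 30.9 for B pups, 20.2 and 27 for C pups, and 34.3 and 38.5 for D pups. Lymphoid tissue was borne out by all 7 T cell markers and all 4 B cell markers with a probe set, which were above background in all 12 arrays. These markers do not tell MLN from other lymphoid tissue, and markers of other tissues are given below.

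Pck1 was the only member with all arrays of every CLA group above all arrays of group D. Its level was 8.84, 8.68 and 9.15 in the arrays of group A, 8.70, 9.32 and 8.77 in B pups, 8.22, 8.18 and 7.85 in C pups, and 7.39, 7.21 and 7.48 in D pups. The lowest value of each CLA group thus lay above the highest value of group D, and both groups with 5 wk of CLA lay above group C. The log2 difference from group D was 1.53 ± 0.18 (SE) in A pups, 1.57 ± 0.18 in B pups and 0.72 ± 0.18 in C pups, or 2.89-fold, 2.97-fold and 1.65-fold. Without replicate 3 of group D these differences were 1.59, 1.63 and 0.78. The order of the means was B, A, C and D, and groups A and B overlapped while every other neighbour in that order was separated. In the intensities as deposited the separation of group C was lost. Pck1 then had 171 to 246 units in C pups and 184 to 244 units in D pups, with a log2 difference of 0.05, in a comparison whose median over all probe sets was -0.70. Relative to that median, Pck1 in C pups was higher by 0.75 as deposited and by 0.76 after quantile normalization.

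The promoter of Pck1 is a classic of hormone-controlled transcription, and that of Agpat2 is shown beside it because Agpat2 lay below group D in C pups, where Pck1 lay above. Both are printed from RefSeq on GRCr8, as the 250 bases before the gene start, each 5′ to 3′ on the strand of its gene. Pck1 lies at chr3:182348322-182348571 on the plus strand and Agpat2 at chr3:29826158-29826407 on the minus strand. Capitals mark, in Pck1, the nuclear receptor hexamer AGGTCA, the cAMP response element TTACGTCA (which reads TGACGTAA on the opposite strand) and the TATA-like box TATTTAA, and in Agpat2 each GC box GGGCGG.
Pck1: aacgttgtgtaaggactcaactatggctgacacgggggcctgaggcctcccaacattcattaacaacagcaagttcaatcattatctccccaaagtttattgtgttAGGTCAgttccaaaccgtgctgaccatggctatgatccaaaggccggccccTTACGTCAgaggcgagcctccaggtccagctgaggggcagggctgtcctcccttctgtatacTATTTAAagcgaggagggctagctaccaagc
Agpat2: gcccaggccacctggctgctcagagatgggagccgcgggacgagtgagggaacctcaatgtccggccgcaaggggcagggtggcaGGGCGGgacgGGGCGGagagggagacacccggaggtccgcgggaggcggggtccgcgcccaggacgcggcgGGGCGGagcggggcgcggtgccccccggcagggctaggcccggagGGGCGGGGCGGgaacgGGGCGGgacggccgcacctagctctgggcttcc

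In the window of Pck1 the 8 bases TTACGTCA begin at -93 from the gene start. They were found on either strand in 0.75% of the 33469 windows of this length in the table, and the shorter core TGACG that lies within them on the opposite strand in 18.2%. The hexamer AGGTCA begins at -144 and was found in 14.1% of windows, and TATTTAA begins at -31 and was found in 4.16%. The window of Agpat2 holds 6 copies of GGGCGG, 2 of which overlap by a base, and 30.5% of windows hold at least 1 copy. Of the 8 members 5 had a window in the table. CCAAT, found in 34% of windows, occurs once in Gpam and once in Lpin1, and Gk has 2 copies of CCAAT, 4 of GGGCGG and 1 of TGACG. The windows of Gpam, Agpat2 and Lpin1 hold no cAMP response core, no nuclear receptor hexamer and no TATA-like box, and the TATA box TATAAA, found in 12.9% of windows, is in none of the 5. These are matches of letters, and no binding was measured. The cAMP response element of 8 bases and TATTTAA were searched only in the letters that Pck1 holds. Nothing is therefore read from their shares or from their absence in other windows.

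**Figure D1:**
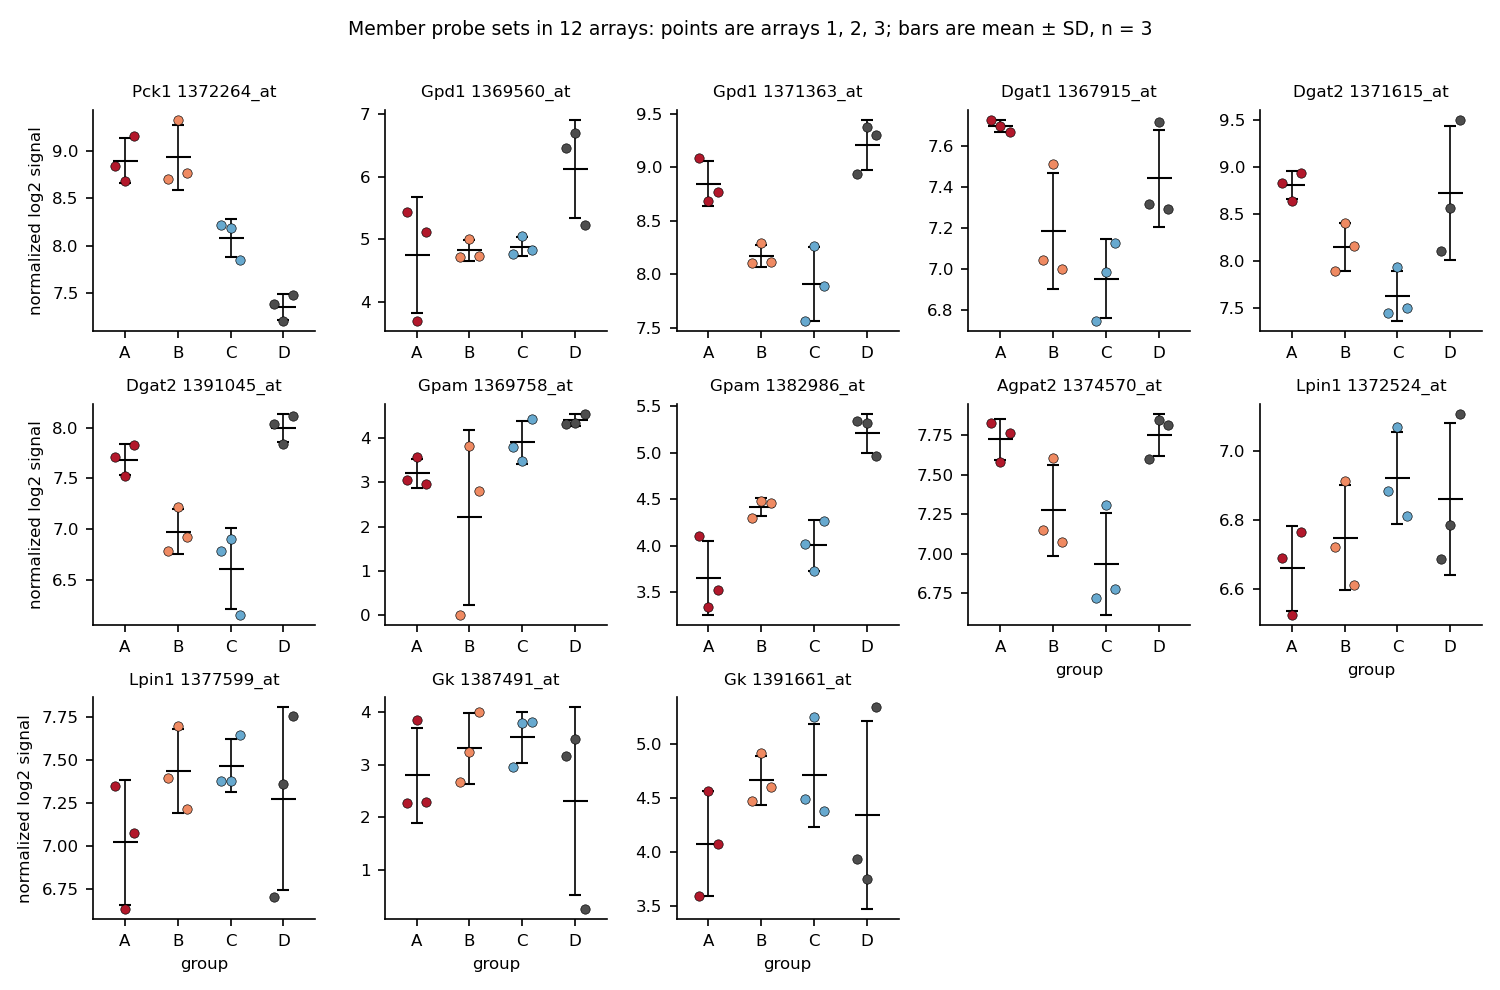
Normalized log2 signal of the 13 member probe sets (y axis, each panel with its own range) by group (x axis). Points are arrays, in the order of replicates 1 to 3, and bars are the mean ± SD of 3 arrays. Pck1 is highest in groups A and B and lowest in D pups, while both probe sets of Gpd1, Dgat2 1391045_at and Gpam 1382986_at have their highest mean in D pups.

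Gpd1, which supplies the glycerol-3-phosphate backbone, was lower in groups B and C than in D pups on both of its probe sets. The brighter one, 1371363_at, was at 9.09, 8.68 and 8.77 in A pups, 8.11, 8.29 and 8.11 in B pups, 7.57, 8.26 and 7.89 in C pups, and 8.94, 9.38 and 9.30 in D pups. Groups B and C lay wholly below group D, and group A overlapped it. The log2 difference from group D was -0.36 ± 0.18 in A pups, -1.04 ± 0.18 in B pups and -1.30 ± 0.18 in C pups, and without replicate 3 of group D it was -0.31, -0.99 and -1.25. The dimmer probe set, 1369560_at, was at 5.43, 3.68 and 5.11 in A pups, 4.71, 5.00 and 4.74 in B pups, 4.75, 5.05 and 4.83 in C pups, and 6.45, 6.69 and 5.23 in D pups. On it groups B and C lay below group D and group A overlapped it, and the difference was -1.38 in A pups, -1.31 in B pups and -1.25 in C pups, each ± 0.45. Replicate 3 of group D was the low one here, and without it the differences were -1.83, -1.75 and -1.69. The value of group A rested on its replicate 2 at 3.68, without which it was -0.85.

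Gpam, the mitochondrial enzyme of the first acylation, had low levels, above background in 23 of 24 values over its 2 probe sets. The brighter probe set, 1382986_at, was at 4.10, 3.34 and 3.52 in A pups, 4.30, 4.48 and 4.46 in B pups, 4.01, 3.73 and 4.27 in C pups, and 5.34, 5.32 and 4.97 in D pups. All 9 CLA arrays lay below all 3 arrays of group D. The log2 difference was -1.56 in A pups, -0.80 in B pups and -1.21 in C pups, each ± 0.32, and it was -1.68, -0.92 and -1.33 without replicate 3 of group D. Deposited intensities of this probe set were 10.5 to 23.6 over the 9 CLA arrays and 37.6 to 56.5 in D pups. The dimmer probe set, 1369758_at, ranged from 2.97 to 3.57 in A pups, 0 to 3.81 in B pups, 3.49 to 4.44 in C pups and 4.31 to 4.55 in D pups, the value of 0 being replicate 1 of group B at the floor. The differences of this probe set of Gpam were -1.20, -2.19 and -0.49 for groups A, B and C, each ± 0.76, and -1.12, -2.11 and -0.42 without replicate 3 of group D. Without the array at the floor, group B differed by -1.08. With both probe sets raised to a floor of 32 units, the difference of 1369758_at was 0 in each CLA group and that of 1382986_at was -0.22.

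Agpat2 acylates lysophosphatidic acid to phosphatidic acid, the step after Gpam, and Lpin1 is a phosphatase that turns phosphatidic acid into diacylglycerol. Agpat2 (1374570_at) was at 7.83, 7.58 and 7.76 in A pups, 7.15, 7.61 and 7.07 in B pups, 6.72, 7.31 and 6.78 in C pups, and 7.60, 7.84 and 7.82 in D pups. Group C lay below group D, whereas groups A and B overlapped it. The differences were -0.03, -0.48 and -0.82 for groups A, B and C, each ± 0.18, and 0.00, -0.44 and -0.79 without replicate 3 of group D. Lpin1 overlapped between each CLA group and group D on both probe sets. Its means on 1377599_at were 7.02 ± 0.36 in A pups, 7.44 ± 0.25 in B pups, 7.46 ± 0.15 in C pups and 7.27 ± 0.53 in D pups (SD, n = 3), and on 1372524_at 6.66, 6.75, 6.92 and 6.86. The differences of Lpin1 from group D ran from -0.25 to 0.19. Without replicate 3 of group D, whose levels of Lpin1 were the highest of that group, all arrays of group C lay above the remaining arrays of group D, with mean differences of 0.43 on 1377599_at and 0.19 on 1372524_at, and groups A and B still overlapped them, with differences of -0.01 and 0.40 on 1377599_at and -0.08 and 0.01 on 1372524_at.

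Dgat1 and Dgat2 are unrelated proteins that catalyse the same last step of triacylglycerol synthesis. Dgat1 (1367915_at) was at 7.73, 7.69 and 7.67 in A pups, 7.04, 7.51 and 7.00 in B pups, 6.74, 6.99 and 7.12 in C pups, and 7.32, 7.72 and 7.29 in D pups. Its difference from group D was 0.26, -0.26 and -0.49 in groups A, B and C, each ± 0.17, and only group C was separated from group D. Without replicate 3 of group D the values were 0.18, -0.33 and -0.57.

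Dgat2 was measured by 2 probe sets, both of which had lower means in groups B and C than in D pups. On 1391045_at it was at 7.71, 7.52 and 7.83 in A pups, 6.79, 7.21 and 6.93 in B pups, 6.78, 6.90 and 6.15 in C pups, and 8.04, 7.84 and 8.12 in D pups. All CLA groups lay below group D on this probe set, with differences of -0.32, -1.02 and -1.39 in groups A, B and C, each ± 0.19, and of -0.26, -0.97 and -1.33 without replicate 3 of group D. On 1371615_at the levels were 8.83, 8.64 and 8.93 in A pups, 7.89, 8.40 and 8.15 in B pups, 7.44, 7.93 and 7.49 in C pups, and 8.10, 8.56 and 9.50 in D pups. Here replicate 3 of group D was the highest of all arrays, the differences were 0.08, -0.57 and -1.10, each ± 0.28, and without that array they were 0.47, -0.18 and -0.71. Group A thus lay above the other arrays of group D on this probe set and below all of them on 1391045_at.

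Gk, glycerol kinase, which adipocytes carry in small amounts, lay close to background. Its probe set 1391661_at ranged from 3.60 to 4.57 in A pups, 4.48 to 4.92 in B pups, 4.38 to 5.26 in C pups and 3.75 to 5.34 in D pups, and every CLA group overlapped group D. Replicate 3 of group D held the 5.34, and without it groups B and C lay above group D by 0.82 and 0.87 and group A overlapped it at 0.23. The other probe set, 1387491_at, was above background in 1 of 3 arrays of group A, 2 of 3 of group B, 3 of 3 of group C and 2 of 3 of group D, so that no order can be read from it. Its differences from group D were 0.50, 1.00 and 1.21 in groups A, B and C, each ± 0.80, and -0.53, -0.02 and 0.19 without replicate 3 of group D. The difference of Gk on 1391661_at was -0.26 in A pups, 0.32 in B pups and 0.37 in C pups, each ± 0.44.

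Counted over the members, group A had 1 probe set wholly above group D and 3 below, group B had 1 above and 5 below, and group C had 1 above and 7 below, of 13. The background over all probe sets was 19.2% above and 14.6% below for group A, 6.7% above and 7.92% below for group B, and 6.82% above and 8.1% below for group C. Since the members were chosen with these differences known, nothing is read from the counts. Without replicate 3 of group D the counts were 2 above and 4 below, 2 above and 5 below, and 4 above and 7 below, beside backgrounds of 25.4% and 21.3%, 20.7% and 25.7%, and 21.3% and 26.2%. The 3 comparisons share the arrays of group D. For groups A, B and C the median difference over the 13 probe sets was -0.25, -0.48 and -0.49, and that over all probe sets was 0.07, -0.04 and -0.04.

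**Figure D2:**
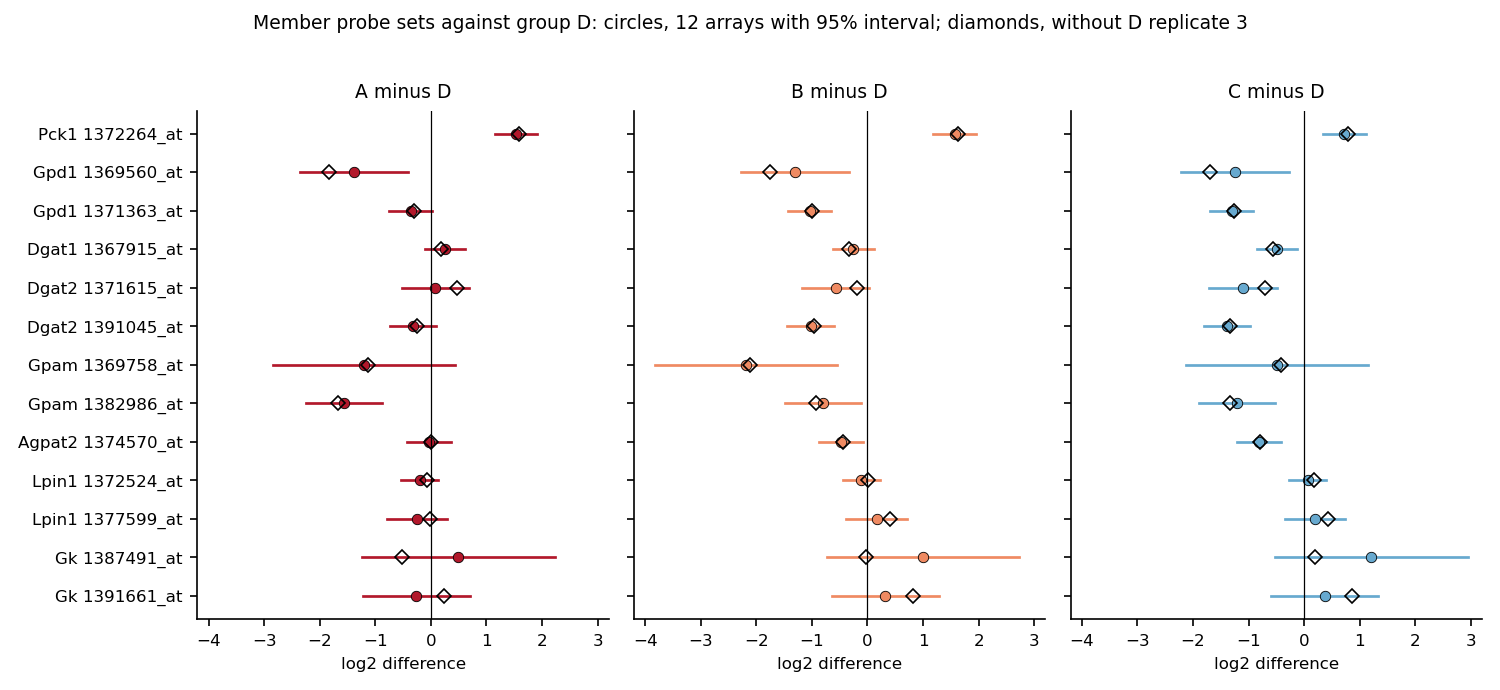
Log2 difference of each member probe set (rows) from group D in groups A, B and C (panels), with the 95% interval of the fit (lines) and the difference without replicate 3 of group D (open diamonds). Pck1 is to the right of 0 in each panel, and Gpd1, Gpam and Dgat2 1391045_at are to the left. No test was made of these differences.

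The comparison of groups A and B sets CLA through milk against CLA by gavage in suckling, where both had 5 wk and dams on CLA in gestation. The diet of the dams in suckling, the gavage itself and the separation from the dam before it differed as well. The paper also reports a different ratio of CLA isomers in plasma for group A than for groups B and C. These cannot be told apart from the route. The paper names no gavage for group D, so groups B and C differ from it in gavage too. Of the members, 1 of 2 probe sets of Gpd1, the probe set of Dgat1 and 1 of 2 of Dgat2 were higher in A pups. Gpd1 (1371363_at) rose by 0.68 ± 0.18 on the log2 scale (limma, adjusted p = 0.011), Dgat1 by 0.51 ± 0.17 (adjusted p = 0.034) and Dgat2 (1391045_at) by 0.71 ± 0.19 (adjusted p = 0.013), and in each of them all arrays of group A lay above all arrays of group B, as in 26.5% of all probe sets. These were 3 of the 13 member probe sets higher and 0 lower, with a background over all probe sets of 16.8% higher and 14.5% lower. The share of members is thus close to what any probe set showed in this comparison. Pck1 differed by -0.04, with an interval of -0.43 to 0.35 (95%, adjusted p = 0.90), and its direction turned with the scaling, at 0.54 as deposited (0.18) and 0.19 with centring on the 75th percentile (0.47). On the second probe sets, Dgat2 (1371615_at) differed by 0.65, again with no overlap, at an adjusted p of 0.097, and Gpd1 (1369560_at) by -0.08, with an interval of -1.04 to 0.89, which turned to 0.45 without replicate 2 of group A. Agpat2 differed by 0.45 (adjusted p = 0.081) and Gpam (1382986_at) by -0.76 (adjusted p = 0.089), the 3 arrays of group A lying below those of group B, as in 21.1% of all probe sets. Gpam (1369758_at) differed by 0.99 (adjusted p = 0.37) with overlapping groups, and by -0.12 without replicate 1 of group B, the array at the floor. The differences of Lpin1 were -0.09 and -0.41, and those of Gk were -0.51 and -0.59, with adjusted p from 0.24 to 0.72.

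These calls are not independent of how the members were chosen, and they rested on single arrays to differing degrees. Gpd1 lost its call without replicate 1 of group A (adjusted p = 0.052), and Dgat2 (1391045_at) without replicate 3 of group A (0.052) or replicate 1 of group B (0.054). Dgat1 lost it when any array of group A, or replicate 1 or 3 of group B, was left out, with adjusted p from 0.072 to 0.13, and also without a trend of the variance (0.076). The directions were kept in each of these. Of the probe sets that did not pass, Dgat2 (1371615_at) passed in 5 of 19 alternatives (limma, adjusted p from 0.0052 to 0.26 over all 19) and Agpat2 in 4 (0.027 to 0.25), both with group A higher and both with the intensities as deposited. Gpam (1382986_at), lower in A pups, passed in 4 of the 19 (0.034 to 1), namely with centring on the 75th percentile (0.044), without the dimmest 40% of probe sets (0.040), without a trend of the variance (0.034) and without replicate 1 of group A (0.048).

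Group A against group C sets long CLA through milk against short CLA by gavage. Among the 8 probe sets tested, 2 were higher in A pups and 0 lower, with a background of 17.6% higher and 15% lower over all probe sets. Dgat1 rose by 0.75 ± 0.17 (limma, adjusted p = 0.0046) and Agpat2 by 0.79 ± 0.18 (adjusted p = 0.0051), and in both of them every array of group A lay above every array of group C, as in 26.8% of all probe sets. Both passed in each of the 19 alternatives at this threshold, with adjusted p up to 0.024 for Dgat1 and 0.027 for Agpat2. Lpin1 was below group C in all arrays of group A on both probe sets, by 0.26 and 0.44 on the log2 scale, as 21.6% of all probe sets were below, without passing (adjusted p = 0.23 and 0.21). Gpam differed by -0.71 and -0.35 and Gk by -0.72 and -0.63, at adjusted p from 0.32 to 0.55. Of the members given as values only, Pck1 was higher in A pups by 0.81 and Gpd1 (1371363_at) by 0.94, and Dgat2 by 1.18 and 1.07, all with no overlap of arrays. The other probe set of Gpd1, 1369560_at, differed by -0.14 with overlap, and by 0.39 without replicate 2 of group A.

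Groups B and C were both gavaged in suckling and differ in CLA during gestation. None of the 8 probe sets tested passed with limma, in a comparison in which 1 of 31042 probe sets did (0.00322%) and 1241 had an unadjusted p under 0.05 (4%). The intervals still allowed changes of up to 0.60 for Dgat1 (difference 0.23, from -0.13), 0.74 for Agpat2 (0.34, from -0.05) and 1.10 for Gpam on 1382986_at (0.41, from -0.28). On the dimmer probe set of Gpam the difference of -1.69 came with an interval of -3.33 to -0.06 and the value at the floor in B pups, and it was not past the threshold after adjustment. Without that array it was -0.59. Pck1, given as a value, was 0.85 ± 0.18 higher in B pups, with no overlap, as in 5.28% of all probe sets. Nothing is read from that share, since Pck1 was chosen in part for its level in group C.

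**Figure D3:**
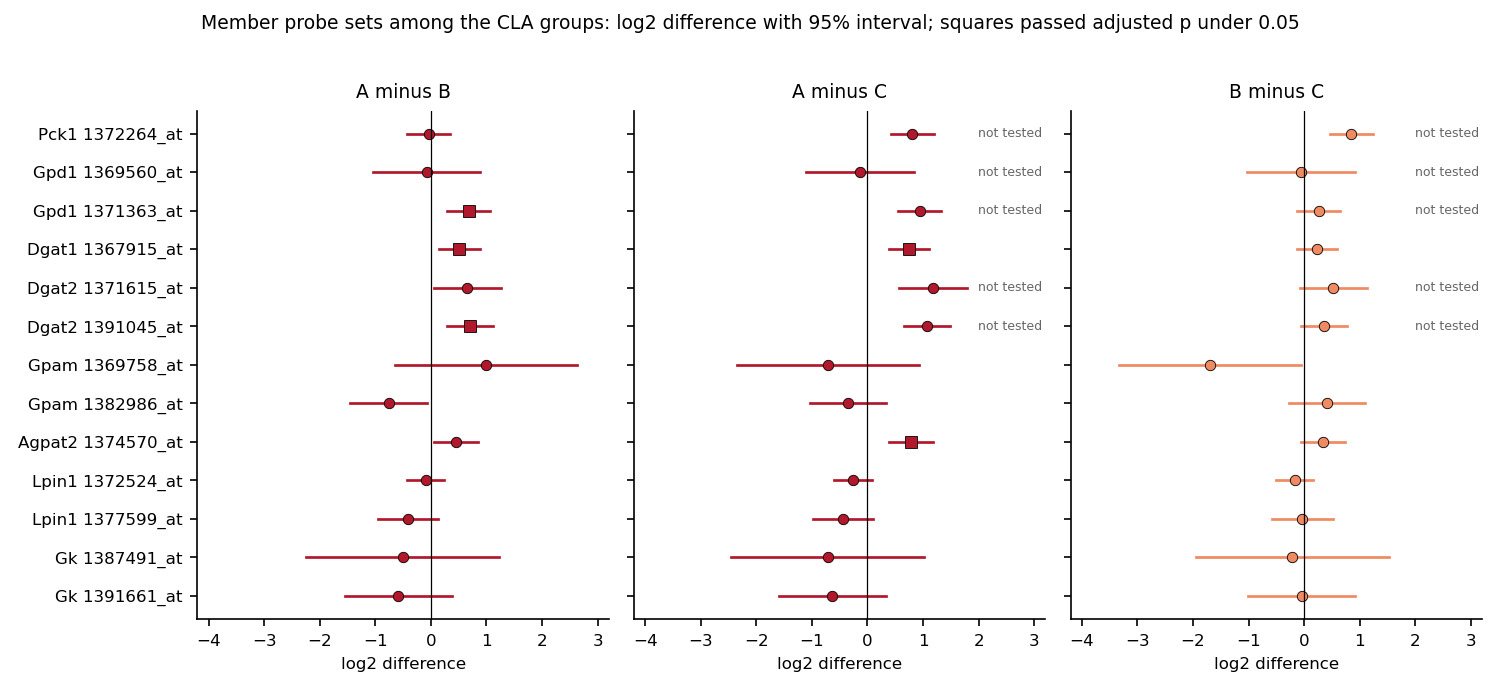
Log2 difference of each member probe set (rows) between CLA groups (panels), with the 95% interval of the fit. Squares passed an adjusted p under 0.05, which 3 of 13 did for group A minus group B, 2 of 8 tested for group A minus group C and none for group B minus group C. Rows marked not tested are descriptions.

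Adipocyte markers were measured beside these genes, since MLN are dissected from fat. In bulk tissue fewer cells of a type and less RNA per cell cannot be told apart. Of 16 markers, 14 to 15 were above background in A pups, 15 to 16 in B pups, 13 to 14 in C pups and 15 in D pups, with Fabp4, Car3 and Adipoq above it in all 12 arrays and Lep in 2. The log2 of their summed signal was 12.84 to 13.28 in A pups, 13.12 to 13.74 in B pups, 12.95 to 13.39 in C pups and 13.36 to 13.75 in D pups. In the fit, 0 of the 16 were higher and 3 lower in A pups than in D pups, beside 16% and 12% of all genes. The counts were 0 and 0 in B pups, beside 0.00704% and 0.0141% of all genes, and 0 and 1 in C pups, beside 0.00704% and 0.0352%. With replicate 3 of group D left out they were 0 and 2 in A pups (14.6% and 13.4% of all genes), 0 and 2 in B pups (7.15% and 12.8%) and 0 and 5 in C pups (8.03% and 15%). Pck1 was lowest in D pups, which held the highest lower end of the marker sum. The part of fat content in the levels of the members was not tested. The ratios that follow are a description, since they reuse the differences from group D by which the members were chosen. Set against that sum within each array, Pck1 was at -4.16 to -4.12 in A pups, -4.57 to -4.41 in B pups, -5.54 to -4.73 in C pups and -6.54 to -5.96 in D pups, so that each CLA group again lay above group D, by 2.05, 1.72 and 1.13 on the log2 scale, and by 2.12, 1.79 and 1.20 without replicate 3 of that group. The same ratio of Gpd1 (1371363_at) differed from group D by 0.16, -0.89 and -0.90 in groups A, B and C, and by 0.21, -0.84 and -0.84 without that array. For Agpat2 the values were 0.49, -0.33 and -0.41, and 0.53, -0.29 and -0.37 without it. For Dgat2 (1371615_at) they were 0.60, -0.43 and -0.69, and 0.99, -0.03 and -0.30 without it, so that the difference of group B rested on that array.

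**Figure D4:**
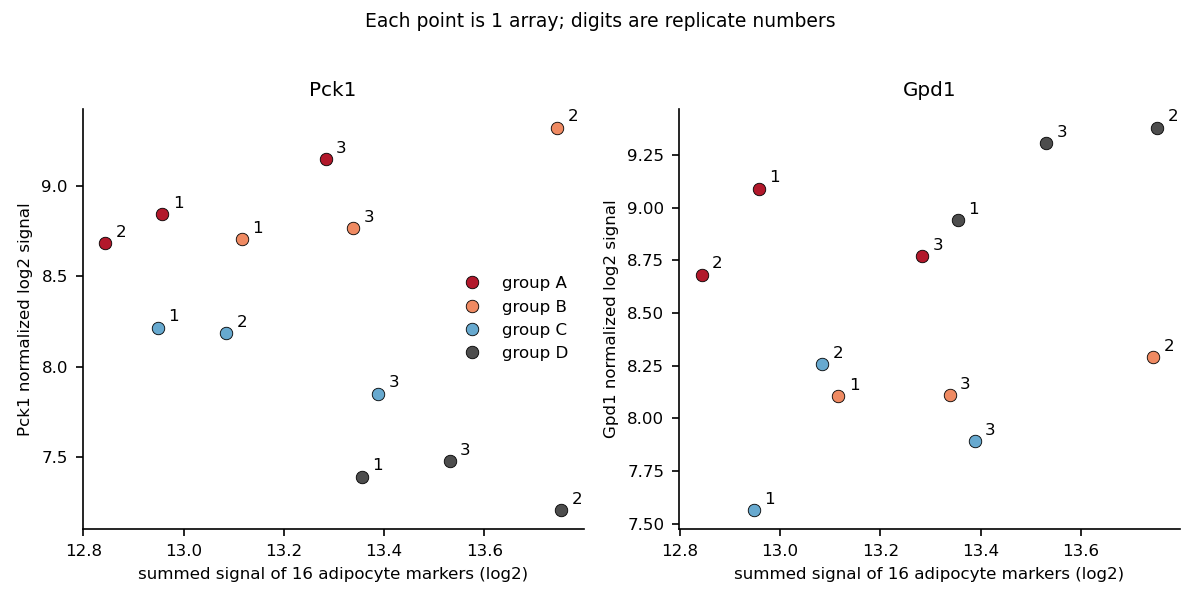
Normalized log2 signal of Pck1 (left) and Gpd1 1371363_at (right) on the y axis against the log2 of the summed signal of 16 adipocyte markers on the x axis, 1 point per array. Group D has a high marker sum with the lowest Pck1 values, 7.21 to 7.48, and for Gpd1 the arrays of groups B and C lie below those of groups A and D over most of the range of the sum.

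Marker sums of other cell types and RNA quality differed between groups as well. Macrophage markers summed to 12.11 to 12.20 in A pups, 11.60 to 11.89 in B pups, 11.33 to 11.65 in C pups and 11.11 to 12.27 in D pups, and B cell markers to 10.69 to 10.88, 11.21 to 11.29, 11.13 to 11.35 and 10.68 to 10.92 in these groups, so that group A did not overlap groups B and C on either list. T cell markers summed to 12.79 to 13.17 in A pups, 12.66 to 12.88 in B pups, 12.78 to 12.97 in C pups and 12.72 to 12.94 in D pups. Hepatocyte markers, with Alb and Apoa1 among them, summed to 6.02 to 6.15 in A pups, 5.79 to 6.08 in B pups, 5.45 to 5.83 in C pups and 5.67 to 6.98 in D pups, with 2 to 5 of 7 above background per array. Brown adipocyte markers summed to 7.11 to 7.42, 7.23 to 7.51, 6.88 to 7.08 and 7.11 to 7.67 in groups A, B, C and D. Gut epithelium summed to 5.61 to 5.76 in A pups, 5.21 to 5.33 in B pups, 5.44 to 5.74 in C pups and 6.12 to 8.45 in D pups. Mesothelium summed to 7.24 to 7.32, 6.89 to 7.22, 6.39 to 7.22 and 8.77 to 9.20 in these groups, and smooth muscle to 10.84 to 11.01, 10.03 to 10.44, 9.85 to 10.20 and 10.16 to 13.00. Within group D the smooth muscle sum was 12.95, 13.00 and 10.16 in replicates 1, 2 and 3. The ratio of 3′ to 5′ signal of hexokinase, a sign of RNA integrity, was 2.84 to 4.96 in A pups, 1.62 to 3.24 in B pups, 1.82 to 2.62 in C pups and 1.84 to 2.53 in D pups. That of Gapdh was 1.21 to 1.53 in A pups, 1.10 to 1.12 in B pups, 1.10 to 1.28 in C pups and 1.06 to 1.22 in D pups. The part of these in the levels of the members was not tested.

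As a description of likeness over the 12 arrays, which includes the differences between groups, the 5 annotated genes whose level followed Pck1 most closely among 13944 probe sets were Alox15 (r = 0.877), Septin4 (0.871), Srgap2 (0.868), Bcl6b (0.847) and Lmo2 (0.845). Alox15, a lipoxygenase of polyunsaturated fatty acids, averaged 7.84 in A pups, 6.91 in B pups, 5.76 in C pups and 5.13 in D pups. None of these is a member or one of the other pathway genes. For Gpd1 (1371363_at) the list held 2 members, Agpat2 (r = 0.926) and Dgat2 on 1391045_at (0.898), and the anaplerotic enzyme Pc (0.924), next to Mfap4 (0.924) and Bcat1 (0.914). The members were chosen by their levels against group D, so nothing is read from the likeness of members to each other. Pc, pyruvate carboxylase, makes the oxaloacetate that Pck1 uses. It averaged 6.84 in A pups, 5.95 in B pups, 5.89 in C pups and 7.38 in D pups, an order that is not that of Pck1.

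The other genes of the pathway were 109 genes with a probe set, listed by function, each by its brightest probe set. Against group D, 14 rose and 15 fell in A pups, with a background of 16% of genes higher and 12% lower. Without replicate 3 of group D, 16 rose and 13 fell, with a background of 14.6% and 13.4%, and as deposited, 2 rose and 13 fell. In group B, 0 passed in either direction, with 7 higher and 21 lower at an unadjusted p under 0.05 (limma), where 6.47% and 10.5% of genes were. In group C 0 passed, with 6 higher and 32 lower at that limit, where 7.42% and 12.2% of genes were. The background in these was 0.00704% higher and 0.0141% lower for group B and 0.00704% and 0.0352% for group C. Without replicate 3 of group D, 7 rose and 16 fell in B pups and 7 rose and 26 fell in C pups, with backgrounds of 7.15% and 12.8%, and 8.03% and 15%. Against group B, 32 rose and 13 fell in A pups, and against group C, 41 rose and 12 fell, with backgrounds of 26.9% and 15%, and 28.2% and 15.5%. Between groups B and C 0 passed (limma), as did 0% of all genes, with 5 higher and 2 lower at an unadjusted p under 0.05, where 1.96% and 1.93% of genes were.

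Fatty acid supply was the list with most genes lower in A pups than in D pups, 7 of 21 falling and 1 rising. Its median was -0.40 against 0.15 over all genes, of which 12% fell and 16% rose. With replicate 3 of group D left out, 4 fell and 2 rose, beside 13.4% and 14.6% of all genes. The median of the list was then -0.15. Cd36, the membrane receptor that takes up long-chain fatty acids, was at 6.92, 6.65 and 7.10 in A pups, 8.93, 9.52 and 9.59 in B pups, 9.75, 9.09 and 9.58 in C pups, and 9.21, 9.13 and 8.95 in D pups. It fell by 2.20 ± 0.20 on the log2 scale in A pups against group D (adjusted p = 1.7e-05), and by 2.45 against group B and 2.58 against group C. Group A lay below all other arrays, and groups B and C differed from group D by 0.25 and 0.38 without passing (adjusted p = 0.57 and 0.35). The acyl-CoA synthetases, which activate fatty acids for esterification, included Acsl5 at -1.12 (adjusted p = 0.00018), Acsl1 at -0.89 (0.022) and Acsl3 at -0.98 (0.025) in A pups against group D. A second probe set of Acsl5 gave -0.10 (0.85), and Acsl1 gave -0.59 without replicate 3 of group D (0.051). The elongase Elovl6 fell by 1.80 (0.0070), with replicate 3 of group D at 8.12 against 6.30 and 6.36 in the other arrays of group D, and by 1.21 without that array (0.0039). Slc27a1, a fatty acid transporter, rose by 0.46 (0.031) in A pups against group D and by 1.03 against group B (0.00015).

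Of all genes, 16% rose and 12% fell in A pups against group D. In the list of glycerol phosphate supply and gluconeogenesis, 0 of 16 genes rose and 1 fell. That gene was Mdh1, the cytosolic malate dehydrogenase, at 9.60, 9.05 and 9.34 in A pups, 10.18, 10.43 and 10.36 in B pups, 10.21, 10.10 and 10.18 in C pups, and 10.53, 10.60 and 10.45 in D pups, a fall of 1.19 ± 0.13 (adjusted p = 6.7e-05). Pck2 is the mitochondrial isoform of Pck1. Its brightest probe set was at 6.71, 6.32 and 6.61 in A pups, 5.22, 5.64 and 5.29 in B pups, 5.56, 5.74 and 5.99 in C pups, and 6.22, 6.54 and 5.56 in D pups. Group A was higher than group B by 1.17 ± 0.25 (adjusted p = 0.0033) and than group C by 0.78 (0.028), and differed from group D by 0.44 (0.25). The second probe set of Pck2 gave 1.04 for group A against group D (0.040) and 0.40 against group B (0.40). Got2, the mitochondrial aspartate aminotransferase, was higher in A pups by 0.60 against group B (0.0079) and 0.79 against group C (0.0014), and its second probe set differed by -0.35 (0.56) and -0.49 (0.38). The glycolytic aldolase Aldoa was higher by 0.33 against group B (0.023) and 0.59 against group C (0.00077). Gpd2, the mitochondrial partner of Gpd1, differed by 0.41 in A pups against group D (adjusted p = 0.31) on the brighter probe set and by -1.13 (0.024) on the other. Pdk4, which shuts pyruvate dehydrogenase and leaves pyruvate to other routes, was at 5.43, 5.42 and 5.57 in A pups, 5.83, 6.54 and 5.81 in B pups, 6.59, 5.99 and 5.76 in C pups, and 3.80, 4.39 and 5.23 in D pups. All CLA arrays of Pdk4 lay above group D, by 1.00, 1.59 and 1.64 in groups A, B and C (adjusted p = 0.062, 0.16 and 0.12). Without replicate 3 of group D the differences of Pdk4 were 1.38, 1.97 and 2.02 (0.0062, 0.00086 and 0.00064). Pdk4 was outside the rule for named genes and is named after its values were seen.

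Among the acyltransferases and phosphatases, 3 of 15 genes rose and 1 fell in A pups against group D. Of all genes, 16% rose and 12% fell. Agpat1, the more widely expressed relative of Agpat2, was at 7.09, 7.52 and 7.26 in A pups, 5.43, 5.56 and 6.46 in B pups, 5.72, 5.23 and 6.32 in C pups, and 6.39, 6.16 and 6.08 in D pups. It rose by 1.08 ± 0.30 against group D (adjusted p = 0.022), by 1.48 against group B (0.0024) and by 1.53 against group C (0.0018), while Agpat2 differed by -0.03 between groups A and D. A second probe set of Agpat1 gave 0.60 against group D, which did not pass (limma, adjusted p = 0.099). Against groups B and C it gave 1.12 (0.0034) and 0.80 (0.021). The lipid phosphatase Plpp2 rose by 1.04 (0.0033) against group D, by 1.45 against group B (0.00024) and by 1.22 against group C (0.00073). Bscl2, or seipin, which shapes lipid droplets, rose by 0.44 (0.045) against group D, 0.64 (0.0041) against group B and 0.95 (0.00031) against group C. Lpin2, a relative of Lpin1, fell by 0.88 (0.023) against group D. Neither passed against group D when replicate 3 of that group was left out, with 0.35 for Bscl2 (0.098) and -0.66 for Lpin2 (0.060). Gpat4, the acyltransferase of the endoplasmic reticulum, and Lpin3 differed by -0.05 and 0.40 (adjusted p = 0.90 and 0.35).

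In lipolysis and the lipid droplet, 2 of 17 genes rose and 2 fell in A pups against group D. Of all genes, 16% rose and 12% fell. Mgll, the last lipase, rose by 0.87 ± 0.18 (adjusted p = 0.0043), and Abhd5, the coactivator of the first lipase, fell by 0.77 (0.0044), as did Lpl by 0.65 (0.038), which did not pass without replicate 3 of group D (-0.43, 0.11). Plin5 also passed, at levels of 2.44 to 3.18 in A pups and 0 to 1.08 in D pups that lie at or near background. Pnpla2, the first lipase itself, differed by 0.23 in A pups (0.33), and was 0.94 higher in A pups than in C pups (0.00054). G0s2, an inhibitor of that lipase, was higher in A pups by 1.24 against group C (0.0027) and 0.90 against group B (0.018), and differed by -0.16 from group D (0.73). Lipe differed by 0.16 (0.78), and the droplet coat Plin1 by 0.19 (0.68), in A pups against group D. Beside the same 16% and 12% of all genes, 2 of 18 rose and 2 fell in the phospholipid branches, which draw on the same diacylglycerol. Cept1, which joins choline or ethanolamine to it, fell by 0.97 ± 0.16 (adjusted p = 0.0011) against group D, by 1.33 against group B and by 1.34 against group C. Pcyt2, on the ethanolamine side, rose by 0.39 (0.028) against group D, 0.68 (0.00068) against group B and 0.79 (0.00025) against group C. Chkb rose by 0.60 (0.019) against group D. Pisd, which makes phosphatidylethanolamine in mitochondria, was higher in A pups than in B pups by 0.59 (0.0018), and Chpt1, a cholinephosphotransferase, was higher than in C pups by 1.11 (0.00077). Other probe sets of Chpt1 gave 0.67 (0.048) and -1.06 (0.096). The cardiolipin synthase Crls1 fell by 0.82 (0.028), and by 0.70 without replicate 3 of group D, which did not pass (0.066).

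Of 22 transcriptional regulators of these genes, 6 rose and 2 fell in A pups against group D, with a median of 0.39. The median over all genes was 0.15, and 16% of them rose and 12% fell. Foxo1, which drives Pck1 in liver when insulin is low, was at 9.09, 9.45 and 9.17 in A pups, 8.61, 8.52 and 8.47 in B pups, 8.44, 8.66 and 8.46 in C pups, and 7.76, 8.28 and 8.57 in D pups. It rose by 1.04 ± 0.17 in A pups (adjusted p = 0.0013), and replicate 3 of group D lay within the range of groups B and C. Crtc2, the coactivator of cAMP-driven genes, rose by 0.84 (0.010) and Cebpb by 0.76 (0.019). Nr3c1, the glucocorticoid receptor, was at 6.75, 7.26 and 7.14 in A pups, 8.26, 8.28 and 8.37 in B pups, 8.30, 8.11 and 8.13 in C pups, and 7.58, 7.49 and 8.35 in D pups. It fell by 0.76 in A pups against group D (0.019), by 1.25 against group B (0.00059) and by 1.13 against group C (0.0011), and its second probe set fell by 2.53 against group D (0.0068). The fall of Nr3c1 against group D was 0.49 (0.027) when replicate 3 of that group was left out. Creb1, which binds the cAMP response element, was named after its values were seen. Its brightest probe set fell by 1.47 against group B (0.0037) and by 1.79 against group C (0.0010), and differed by -0.66 from group D (0.18), and of its 3 other probe sets 1 fell by 1.18 (0.0053) and 1 by 2.47 (0.0049) against group D, and the last differed by -0.82 (0.26). Nr1h2, a liver X receptor, rose by 0.47 against group D (0.020), 0.82 against group B (0.00048) and 0.95 against group C (0.00018). The sterol regulators Srebf2 and Scap rose by 0.58 (0.0072) and 0.67 (0.011). Pparg, the master regulator of adipocytes, fell by 1.15 ± 0.27 (0.0095) and was at 5.32, 4.97 and 5.58 in A pups, 5.49, 6.43 and 5.59 in B pups, 5.47, 5.55 and 5.86 in C pups, and 6.19, 6.68 and 6.45 in D pups. Cebpa differed by 0.46 in A pups against group D (0.14) and was higher in A pups than in B pups by 0.95 (0.0035) and than in C pups by 1.17 (0.00093). Over all probe sets 6313 passed in A pups against group D, 3138 higher and 3175 lower, against 419 and 2695 as deposited, so single genes of this comparison stand among many.

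**Figure D5:**
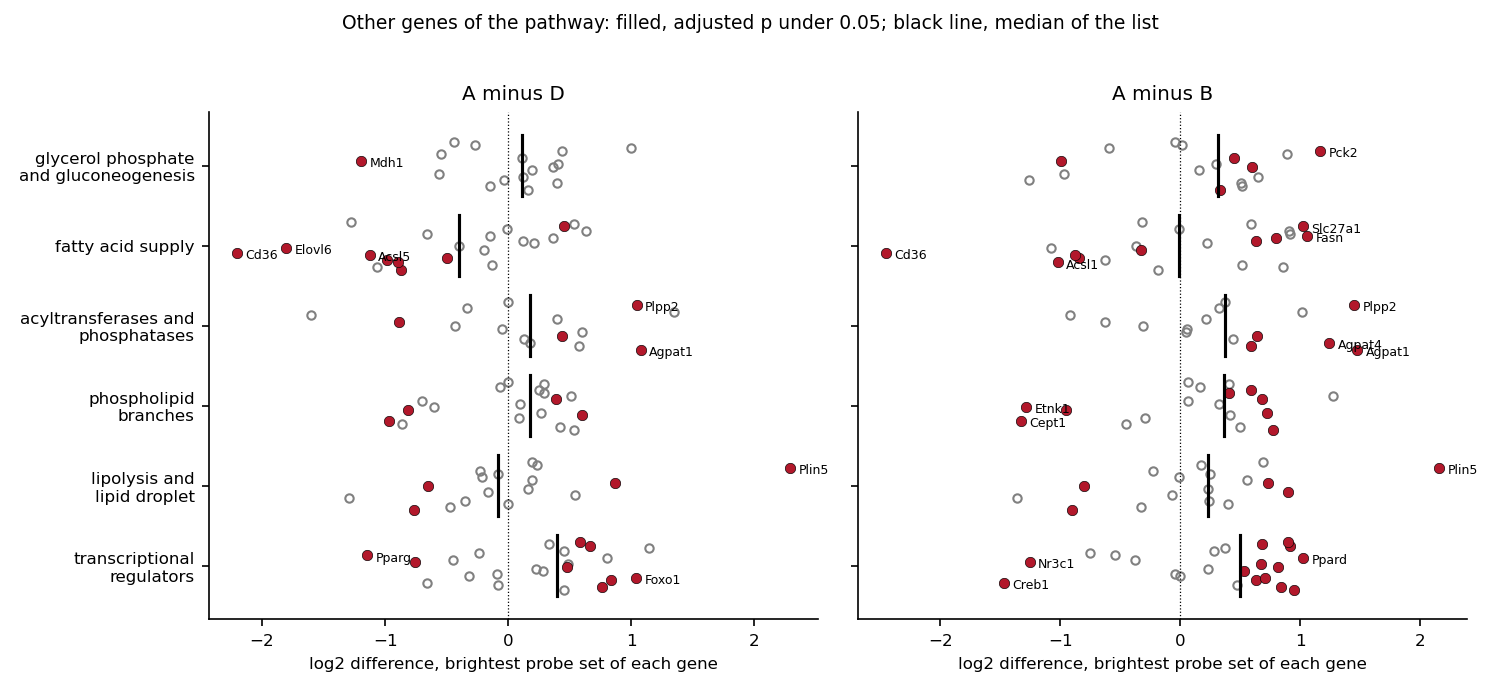
Log2 difference (x axis) of each of the 109 other pathway genes by function (rows), for group A minus group D (left) and group A minus group B (right). Filled points passed an adjusted p under 0.05, black lines are medians, and genes that passed with a difference of 1 or more are named. The median of fatty acid supply lies at -0.40 in group A minus group D, with Cd36 at -2.20.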

How the data were processed

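Total RNA of MLN was hybridized to Affymetrix rat genome arrays, 1 per pup, with 12 arrays and 3 per group. The deposited values are signal intensities on a linear scale that the authors made with MAS5 (version not given in the sources used). Their medians differed between arrays, and whether the authors had scaled them was not determined. Zeros took the smallest positive value of 0.1, and the 31099 probe sets were put on the log2 scale and quantile normalized, with a floor of 1 on the linear scale. Of these 57 control probe sets were left out and 31042 were tested, 20826 of them with 1 gene symbol, 436 with several and 9780 with none. Symbols were updated by gene number on GRCr8. A probe set counted as above background where it exceeded the 95th percentile of 27 spike probe sets. These were taken as background, although the sources used do not say whether their RNA was added.

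Groups were compared in R 4.3.3 using limma 3.58.1. The fit had a mean for each group over all 12 arrays and let the variance follow the level, and its two-sided p was adjusted by the Benjamini-Hochberg method over all probe sets, a call needing an adjusted p under 0.05. An exact permutation test of 3 against 3 cannot give a p below 0.1. The number of arrays limits the precision. The members, lists and tests were chosen with earlier results of these data known. Named genes were all members, in each list the smallest adjusted p in each comparison (up to 5 for group A against group D, otherwise up to 3), and fixed isoforms and regulators. The script was tested on simulated data. Alternatives were no normalization, centring at each array's 75th percentile, raising low signals to 32, leaving out the dimmest 40%, no variance trend, only the 2 groups compared, unadjusted p with a fold of 2, the replicate number as a block, and leaving out each array.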

Additional observations from a re-analysis of the deposited data

How the results depend on the processing

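Over the 78 member differences, 1456 values under an alternative stayed on their side of the threshold with the same direction or, where no test was made, moved by less than the spread, 64 moved, 14 gained a call and 14 lost one. The sign changed in 48 of the 1548 values, over 23 differences, none of them past the threshold. Alternatives that alter only the fit or the threshold cannot move a difference or its sign. Nor can leaving out the dimmest probe sets or an array outside the 2 groups compared. Untested differences count as unchanged by construction in all of these, so the counts overstate how stable the differences are. As deposited, Lpin1 (1377599_at) was -0.37 and -0.46 in groups B and C against D (0.16 and 0.19), and without replicate 3 of group D, Gk (1387491_at) was -0.53 in A against D (0.50). Depth is not known for arrays, and Gpam and Gk lie closest to background, so a floor of 32 takes most of their differences away.

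Quantile normalization gave 6313 probe sets past the threshold in group A against group D (3138 higher, 3175 lower), and the values as deposited gave 3114 (419 higher, 2695 lower), so that 49.7% and 13.5% of calls were higher. In group A against group B the share higher was 53.8% and became 73.4%, and against group C 53.9% and became 80%. As deposited, the wider genes past were 15 in group A against D (29 in the main setting), 4 in B against D and 62 in C against D (0 in both in the main setting), all probe sets were 106 in B against D (5), 7058 in C against D (16) and 2 in B against C (1), and members were 5 in A against B (3). The wider genes split 43 higher and 4 lower in A against B and 55 and 3 in A against C. The median of all probe sets as deposited was -0.12, -0.55 and -0.70 for groups A, B and C against D. Centring on the 75th percentile gave 6 members in A against B, 5 higher and 1 lower.

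A floor of 32 left 2 members of group A outside the range of group D (4), with 15 probe sets past in B against D and 4 in B against C. Without the variance trend there were 16 wider genes in A against D, and 14, 6 and 3 probe sets in B against D, C against D and B against C. With only the 2 groups compared there were 3372 probe sets and 15 wider genes in A against D, 0 probe sets in B against D and in C against D, and 11 in B against C. Unadjusted p with a fold of 2 gave 3717 probe sets and 11 wider genes in A against D, 2084 and 6 in B against D, 2282 and 9 in C against D, 6019, 15 and 0 members in A against B (9724, 45 and 3), 6335, 17 and 0 members in A against C (10121, 53 and 2), and 760, 3 and 1 member in B against C.

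Leaving out each array in turn gave 4127 to 6817 probe sets, 17 to 29 wider genes and 4 to 7 members outside the range in A against D. In B against D it gave 2 to 5373, 0 to 23 and 6 to 8, and in C against D 2 to 6040, 0 to 33 and 8 to 11, the highest counts of probe sets and wider genes in both being those without replicate 3 of group D. It gave 7632 to 11569, 34 to 55 and 1 to 4 members past in A against B, 7969 to 11912, 42 to 63 and 2 to 2 in A against C, and 1 to 15, 0 and 0 in B against C. The cause of these changes was not tested.

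Replicate numbers were not used as pairs in the main fit. The correlation of deviations was -0.015 to 0.083 (median 0.010) in 18 pairs of arrays with the same number from different groups. In 36 pairs with different numbers it was -0.093 to 0.037 (median -0.007), so pairs with the same number were slightly higher. In both sets 0 pairs were over 0.1. With the replicate number as a block, 6387 probe sets and 31 wider genes passed in A against D, 5 and 0 in B against D, 17 and 0 in C against D, 9864, 47 and 3 members in A against B, 10245, 55 and 2 members in A against C, and 1, 0 and 0 members in B against C.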
